A study of Mus musculus with 15 samples.

Results

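Colonic crypts of mice with fatty liver and an Alpl knockdown (FL-shAlpl) were compared with crypts of mice with normal liver and a control vector (NL-shGFP). All genes that passed a filter on low counts entered, which were 17404 of 32939 genes, in 10 of the 15 RNA-seq libraries of the series. The question was what still set the knockdown group apart from the normal-diet group. The NL-shGFP group was wild type, ate a normal diet, had a normal liver and received AAV-shGFP (n = 5). FL-shAlpl was also wild type, ate the CDAA diet, had a fatty liver and received AAV-shAlpl (n = 5). A fatty liver group with the control vector (FL-shGFP: wild type, CDAA diet, AAV-shGFP, n = 5) stood in the same fit and is given beside single results. CDAA usually stands for feed without choline whose protein is replaced by L-amino acids, AAV is the adeno-associated viral vector that carried a short hairpin RNA, and Alpl encodes tissue-nonspecific alkaline phosphatase. Diet, liver condition and knockdown all differ between the compared groups, and no normal-liver group received AAV-shAlpl, so their parts cannot be told apart. The labels used here do not state the animals behind the replicates, their age or sex, a batch, or the tissue the vector reached.

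The colonic crypt is a pocket of epithelium renewed from Lgr5-positive stem cells at its base, which Wnt signals maintain. Their daughters become absorptive colonocytes, mucus-making goblet cells, hormone-making enteroendocrine cells and chemosensory tuft cells. Choline is needed to make phosphatidylcholine, and rodents on choline-deficient feeds store fat in the liver.

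Values per library are CPM (counts per library size, scaled by TMM), ± beside a CPM is the SD of 5 libraries, and a fold change is a log2 fold change ± its standard error from edgeR's quasi-likelihood fit. A gene is said to have risen or fallen when its edgeR p-value, adjusted over the 17404 genes, was below 0.05. Library totals ran from 33272941 to 41352922 counts in NL-shGFP and from 42071168 to 58590251 in FL-shAlpl, a difference with exact permutation p = 0.00794, the smallest that 5 against 5 allows. Epithelial markers were high in every library. The summed CPM of 10 of them was 9602 to 11856 in NL-shGFP and 10474 to 16554 in FL-shAlpl. FL-shAlpl replicate 1 carried RNA of a small intestine type: 11 small intestine markers summed to 202 CPM there and to 31.7 to 49.4 in the other 4, against 15.5 to 34.1 in NL-shGFP. Its 8 Paneth markers summed to 866 CPM against 19.9 to 41.6 in the other 4 and 10.8 to 24.2 in NL-shGFP. In FL-shGFP the small intestine markers summed to 65.0 to 209 CPM, a range that holds the 202 CPM of FL-shAlpl replicate 1. The Paneth markers summed to 6.31 to 18.3 CPM in FL-shGFP, far below that library. NL-shGFP replicate 5 stood apart from the other 4 in immune genes and also over genes at large, with a median chi-square per gene of 9.48 to 10.3 in its pairs. Replicates 1 and 2, and 3 and 4, were the closest pairs (2.35 and 1.52), against 3.46 to 4.47 for the other pairs among replicates 1 to 4. No pair agreed within sampling noise, so all 5 were kept, and counts of genes are also given with both pairs summed, which leaves 3 NL-shGFP samples. Alpl itself was scarce in the crypts, with counts of 6, 2, 2, 2 and 0 in FL-shAlpl, against 0, 2, 0, 0 and 0 in NL-shGFP and 15, 14, 18, 25 and 23 in FL-shGFP. Counts this low do not check the labels of FL-shAlpl against NL-shGFP, and no fold is given (edgeR adjusted p = 0.219).

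In all, 3036 of the 17404 genes differed between FL-shAlpl and NL-shGFP, 17.4% of those tested, with 1621 higher (9.31%) and 1415 lower (8.13%). Of these, 1412 differed by at least 2-fold, 657 higher and 755 lower. CPM did not overlap between the 2 groups in 14.6% of the genes tested. Counts within the gene lists below are to be read beside the shares of 9.31% higher and 8.13% lower. Without FL-shAlpl replicate 1 the count was 3523 (19.9%), 1978 higher (11.2%) and 1545 lower (8.74%). The same direction and call held for 2758 of the 3036, and none was called the opposite way. The count was 1979 without FL-shAlpl replicate 2 and 1340 with the 2 NL-shGFP pairs summed. Higher genes made up 53.4% of the calls, against 74.9% when libraries were scaled by their totals alone and 42.3% with upper-quartile factors. Scaling by totals moved the median log2 fold change of all genes from 0.05 to 0.19. In the same fit FL-shGFP differed from NL-shGFP in 8128 genes (46.7%, 25.1% higher and 21.6% lower), and FL-shAlpl from FL-shGFP in 6261 (36.0%, 18.0% higher and 17.9% lower). These 3 comparisons share libraries, so their values are set side by side and not counted as agreement.

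**Figure D1:**
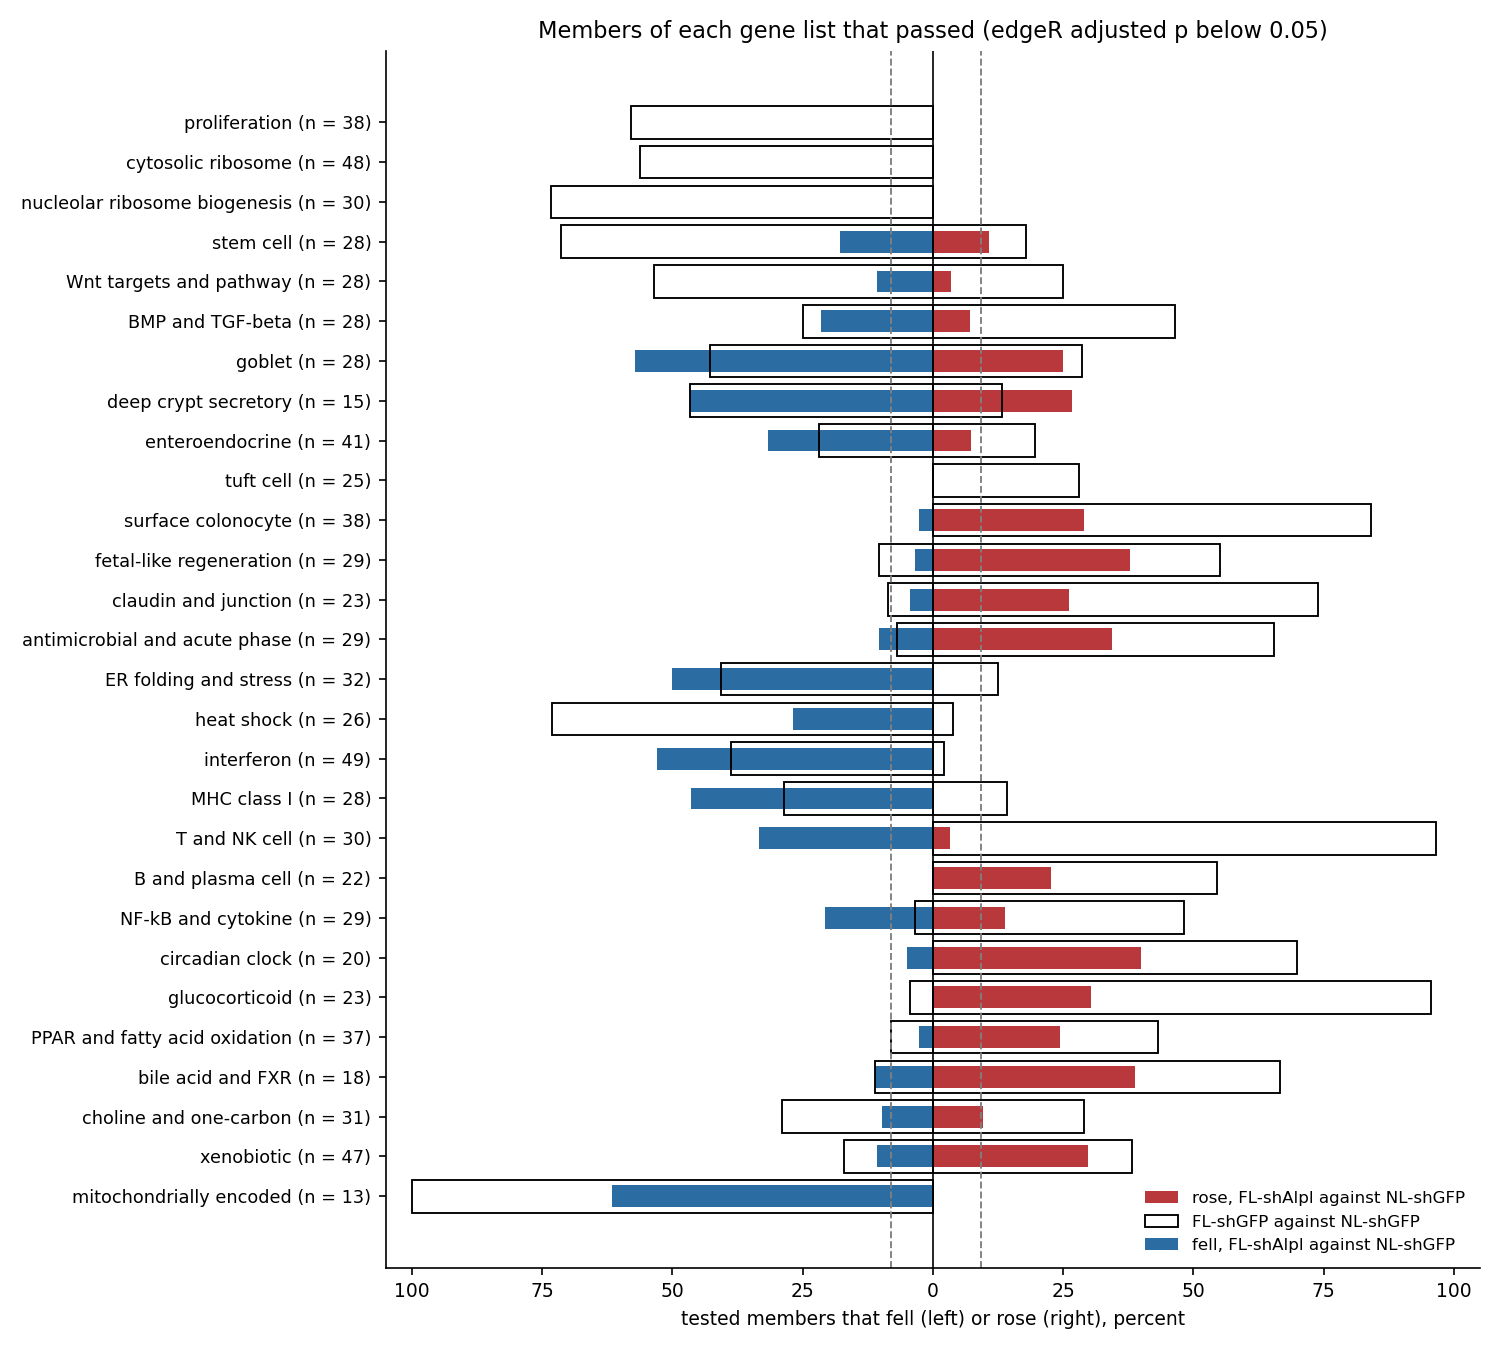
Share of tested members of each gene list that rose (right) or fell (left), in percent, in FL-shAlpl against NL-shGFP (filled bars) and in FL-shGFP against NL-shGFP (open outlines), by edgeR with adjusted p below 0.05. In the filled bars the proliferation, both ribosome and the tuft cell lists stand at 0, the mitochondrially encoded, goblet, interferon and endoplasmic reticulum lists reach farthest left, and the 2 dashed lines mark the shares over all genes tested, 8.13% lower and 9.31% higher.

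No gene of the proliferation or ribosome lists passed against NL-shGFP by edgeR. Of 38 proliferation genes 0 rose and 0 fell, and their log2 fold changes lay between -0.37 and 0.37 with a median standard error of 0.42. Of 48 cytosolic ribosome genes 0 rose and 0 fell, with a median of 0.14, and of 30 nucleolar ribosome biogenesis genes 0 rose and 0 fell, with a median of 0.10. The median of all genes tested was 0.05. At an unadjusted edgeR p below 0.05 the counts were 0, 0 and 1, DESeq2 called 0 in each list, and limma-voom with quality weights called 1, 2 and 0, all lower. In FL-shGFP against NL-shGFP, 22 of the proliferation genes, 27 of the ribosome genes and 22 of the nucleolar genes fell and none rose. Mki67, which marks dividing cells, was at 436, 352, 331, 319 and 297 CPM in NL-shGFP replicates 1 to 5 and at 546, 269, 343, 502 and 131 in FL-shAlpl. The FL-shAlpl libraries lay on both sides of the NL-shGFP libraries, replicates 1 and 4 above all of them and replicates 2 and 5 below. Its log2 fold change was 0.04 ± 0.44, edgeR adjusted p = 0.960, with an approximate 95% interval of -0.91 to 1.003, so that changes of close to 2-fold in either direction lay inside it. In bulk RNA, fewer cells of a type and less RNA per cell cannot be told apart.

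The stem cell genes were called in both directions. Of 28 tested, 3 rose, 5 fell and 20 did not pass, with a median of -0.26. Over all genes tested 9.31% rose and 8.13% fell, so the 3 rises were near the share of all genes. Without FL-shAlpl replicate 1 the counts were 3 and 7. Against FL-shGFP, 18 of the 28 rose and 1 fell. Lgr5, the R-spondin receptor that marks crypt stem cells, was at 12.3, 10.6, 16.02, 13.9 and 26.4 CPM in NL-shGFP and at 17.4, 4.86, 7.3001, 6.66 and 4.08 in FL-shAlpl. FL-shAlpl replicate 1, the library with small intestine type RNA, was inside the NL-shGFP range and the other 4 lay below every NL-shGFP library. The fold change did not pass with all libraries (-0.97 ± 0.71, edgeR adjusted p = 0.383) nor without that one (-1.46, edgeR adjusted p = 0.190). Ascl2, the transcription factor of the stem cell state, overlapped between the groups, at 3.24, 3.29, 5.36, 6.09 and 5.43 CPM in NL-shGFP and 6.42, 3.06, 6.03, 3.87 and 2.79 in FL-shAlpl (-0.08 ± 0.47, edgeR adjusted p = 0.935). Axin2, the Wnt feedback gene, was at 27.8, 12.98, 20.5, 15.01 and 10.3 CPM in FL-shAlpl, against 24.5, 22.5, 27.9, 28.2 and 25.01 in NL-shGFP and 0.608 to 3.22 in FL-shGFP, and its difference from NL-shGFP did not pass (-0.56 ± 0.38, edgeR adjusted p = 0.336). Approximate 95% intervals were -2.52 to 0.57 for Lgr5, -1.11 to 0.95 for Ascl2 and -1.39 to 0.26 for Axin2, so that none of them was shown to be equal to NL-shGFP.

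Other genes of the crypt base were lower. Rgmb, a co-receptor for bone morphogenetic proteins, was at 79.4, 76.2, 79.5, 80.03 and 82.2 CPM in NL-shGFP and at 42.8, 37.3, 34.9, 37.4 and 28.1 in FL-shAlpl, with no overlap (-1.14 ± 0.14, edgeR adjusted p = 0.000108). Ephb3, the Eph receptor that keeps cells at the crypt base, fell from 37.4, 34.8, 49.7, 49.5 and 53.97 CPM to 23.9, 14.2, 20.6, 25.5 and 13.1, again with no overlap (-1.21 ± 0.22, edgeR adjusted p = 0.00212). Tnfrsf19, a Wnt target of stem cells (-1.53 ± 0.34, edgeR adjusted p = 0.00668), and the adhesion receptor Cd44 (-1.18 ± 0.32, edgeR adjusted p = 0.0199) fell too. Against FL-shGFP, Ephb3 was higher (1.33 ± 0.23, edgeR adjusted p = 0.000722) and Cd44 did not differ beyond its error (0.17 ± 0.32, edgeR adjusted p = 0.707). The 3 stem cell list genes that rose were the water channel Aqp4 (1.95 ± 0.33), the R-spondin receptor Lgr4 (0.67 ± 0.15) and the nuclear receptor Esrrg (1.87 ± 0.36), with edgeR adjusted p of 0.00143, 0.00577 and 0.00292. Aqp4 was at 152, 129, 256, 269.5 and 332 CPM in NL-shGFP and at 444, 1151, 937, 498 and 1372 in FL-shAlpl, and it is also an absorptive colonocyte gene. Of 28 Wnt pathway genes 1 rose, the Wnt secretion factor Wls (0.73 ± 0.16, edgeR adjusted p = 0.00695), and 3 fell. These were Cd44, Ephb3 and Tnfrsf19, already given above. Both counts of the Wnt list were near or below the shares over all genes tested, 9.31% higher and 8.13% lower. Of 28 genes of bone morphogenetic protein and TGF-beta signalling 2 rose and 6 fell. The inhibitory helix-loop-helix gene Id4 (-2.10 ± 0.32, edgeR adjusted p = 0.000568), the ligand Bmp7 (-1.86 ± 0.30, edgeR adjusted p = 0.000825), the target Id3 (-1.25 ± 0.33, edgeR adjusted p = 0.0172) and the decoy receptor Bambi (-0.86 ± 0.23, edgeR adjusted p = 0.0156) fell. The transducer Smad4 (0.78 ± 0.12, edgeR adjusted p = 0.000695) and the receptor Tgfbr2 (0.62 ± 0.15, edgeR adjusted p = 0.00993) rose. With both NL-shGFP pairs summed 2 of this list fell.

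**Figure D2:**
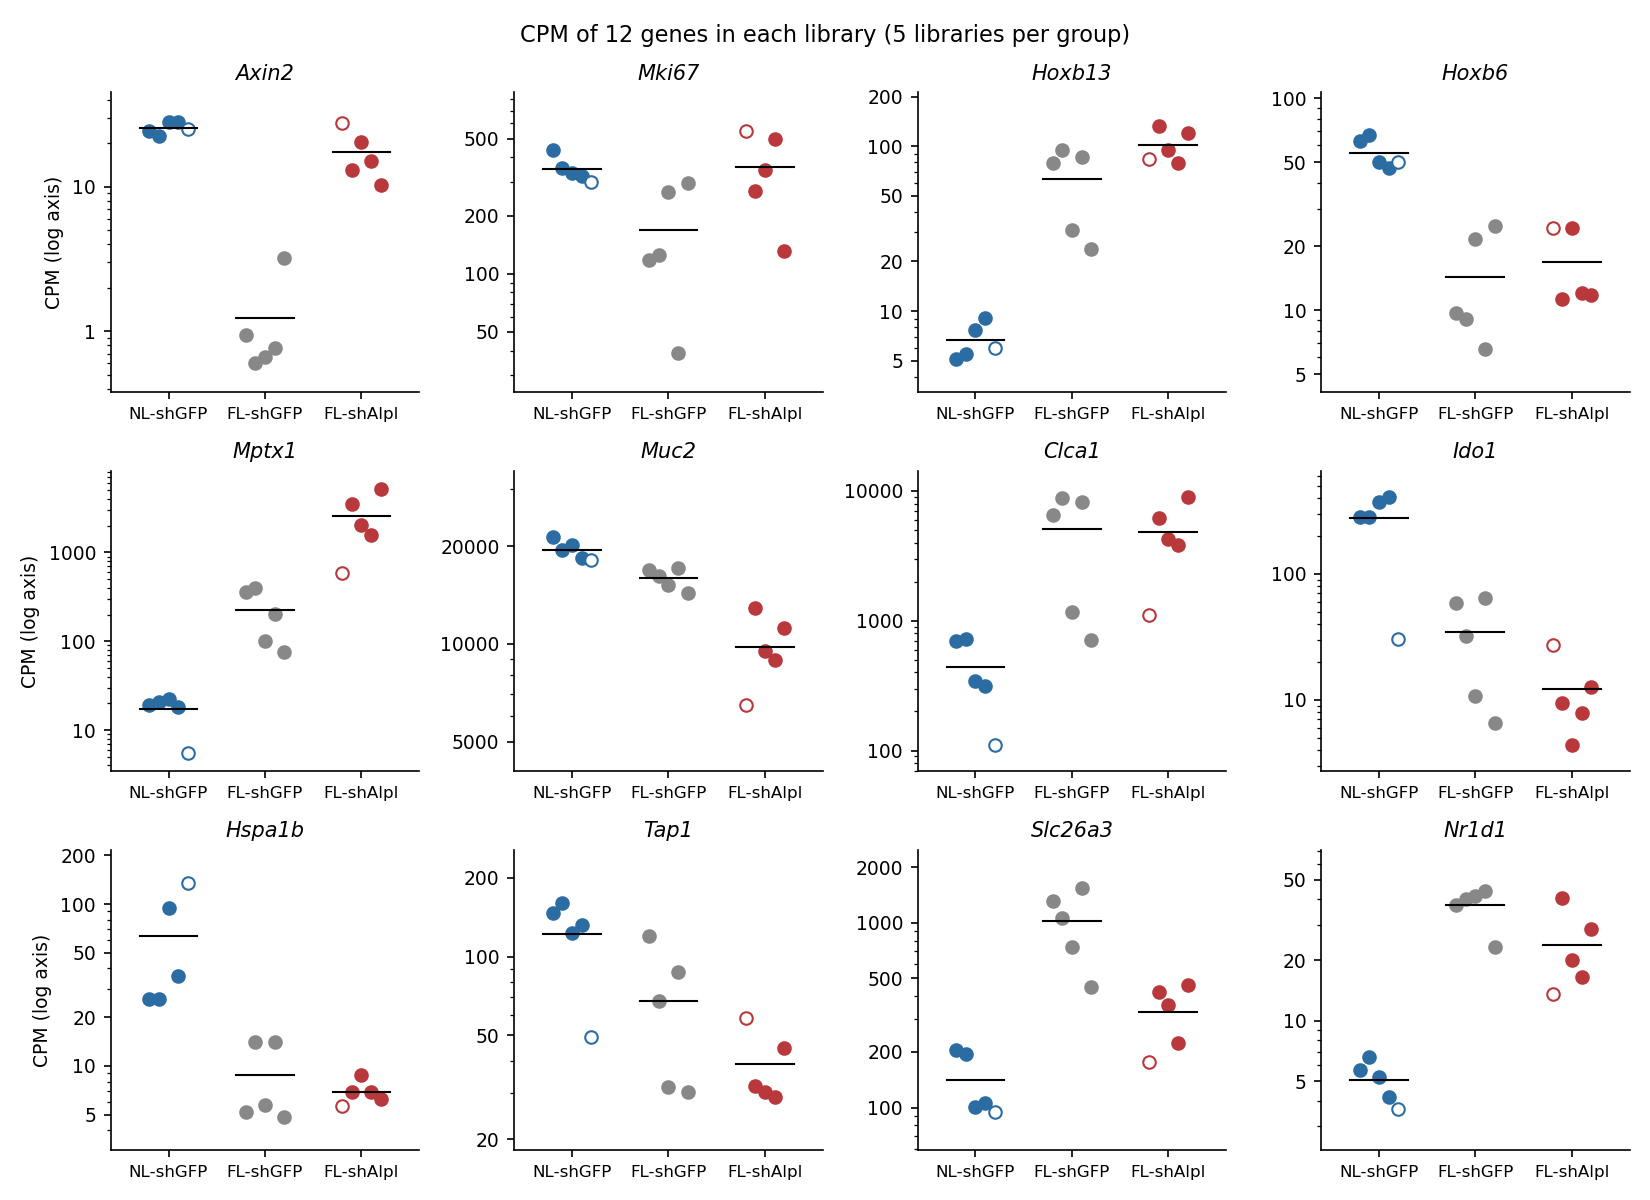
CPM of 12 genes in each library (log axis), for NL-shGFP, FL-shGFP and FL-shAlpl, 5 libraries each; a dot is a library, the horizontal line is the group mean, and open symbols are NL-shGFP replicate 5 and FL-shAlpl replicate 1. Axin2 and Mki67 of FL-shAlpl overlap NL-shGFP, Hoxb13 and Mptx1 lie above every NL-shGFP library, and Hoxb6, Muc2 and Hspa1b lie below every one.

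Hox genes separated the groups by position. They encode transcription factors whose position in a cluster follows their domain along the body axis, so that the last genes of a cluster mark the hind end of the gut. Hoxb13 was at 83.6, 133, 94.3, 79.6 and 119.6 CPM in FL-shAlpl, against 5.15, 5.51, 7.68, 9.05 and 5.997 in NL-shGFP and 79.4, 94.5, 31.04, 85.4 and 23.9 in FL-shGFP. Every FL-shAlpl library lay above every NL-shGFP library (3.93 ± 0.37, edgeR adjusted p = 3.04e-05), and without FL-shAlpl replicate 1 the fold change was 3.998. Hoxa13 was at 3.21, 4.86, 9.02, 10.3 and 11.3 CPM in NL-shGFP and at 17.7, 56.4, 35.95, 19.4 and 43.8 in FL-shAlpl (2.16 ± 0.46, edgeR adjusted p = 0.00526). Hoxd13 was at 2.73, 1.79, 2.35, 2.38 and 0.426 CPM in NL-shGFP and at 23.5, 11.4, 19.3, 4.93 and 5.26 in FL-shAlpl (2.74 ± 0.68, edgeR adjusted p = 0.0133). Both were without overlap, and Hoxd13 was above FL-shGFP as well (1.85 ± 0.65, edgeR adjusted p = 0.0385), in which it did not pass against NL-shGFP (0.88 ± 0.66, edgeR adjusted p = 0.284). Hoxb6, of the middle of its cluster, went the other way, from 62.99, 66.9, 50.2, 46.8 and 49.9 CPM in NL-shGFP to 24.5, 11.3, 24.5, 12.03 and 11.9 in FL-shAlpl (-1.71 ± 0.35, edgeR adjusted p = 0.00459).

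Of the 27 Hox genes tested, a part were in the list of colon position genes. The rest were added after their values were seen. Over the 27, 5 of the 7 with numbers from 10 to 13 rose and 0 fell. Of the 20 with numbers from 1 to 9, 1 rose and 10 fell. Hoxb13, Hoxa13, Hoxd13, Hoxd10 and Hoxd11 rose, and Hoxa10 (0.95 ± 0.33, edgeR adjusted p = 0.0579) and Hoxa11 (-0.58 ± 0.39, edgeR adjusted p = 0.335) did not pass. Hoxb4 through Hoxb9 all fell, from -0.60 ± 0.17 for Hoxb9 to -1.71 ± 0.35 for Hoxb6. The only riser below 10 was Hoxd9 (2.54 ± 0.83, edgeR adjusted p = 0.0450), at a mean of 0.0391 CPM in NL-shGFP. Hoxd10 and Hoxd11 were also scarce, at means of 0.0498 and 0.116 CPM in NL-shGFP and 0.700 and 0.685 in FL-shAlpl. With a filter of at least 1 CPM in 4 samples, 3 of 5 genes numbered 10 to 13 rose and 0 fell. Of 14 numbered 1 to 9, 0 rose and 8 fell with that filter. Without FL-shAlpl replicate 1, 4 of the 7 rose, Hoxd11 no longer among them, and 0 rose and 8 fell of the 20. With both NL-shGFP pairs summed these were 2, 0 and 2, and leaving out FL-shAlpl replicate 2 gave 4 falls among the 20 in place of 10. The labels do not say which stretch of colon the crypts came from, and the part of position in the results that follow was not tested. Car1, a carbonic anhydrase of colonocytes, was at 5603, 6014, 2262, 2278 and 1661 CPM in NL-shGFP and at 2218, 1722, 2478, 770.1 and 1623 in FL-shAlpl and did not pass (-1.02 ± 0.36, edgeR adjusted p = 0.0658). NL-shGFP replicates 1 and 2 stood above the other 3 in it.

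**Figure D3:**
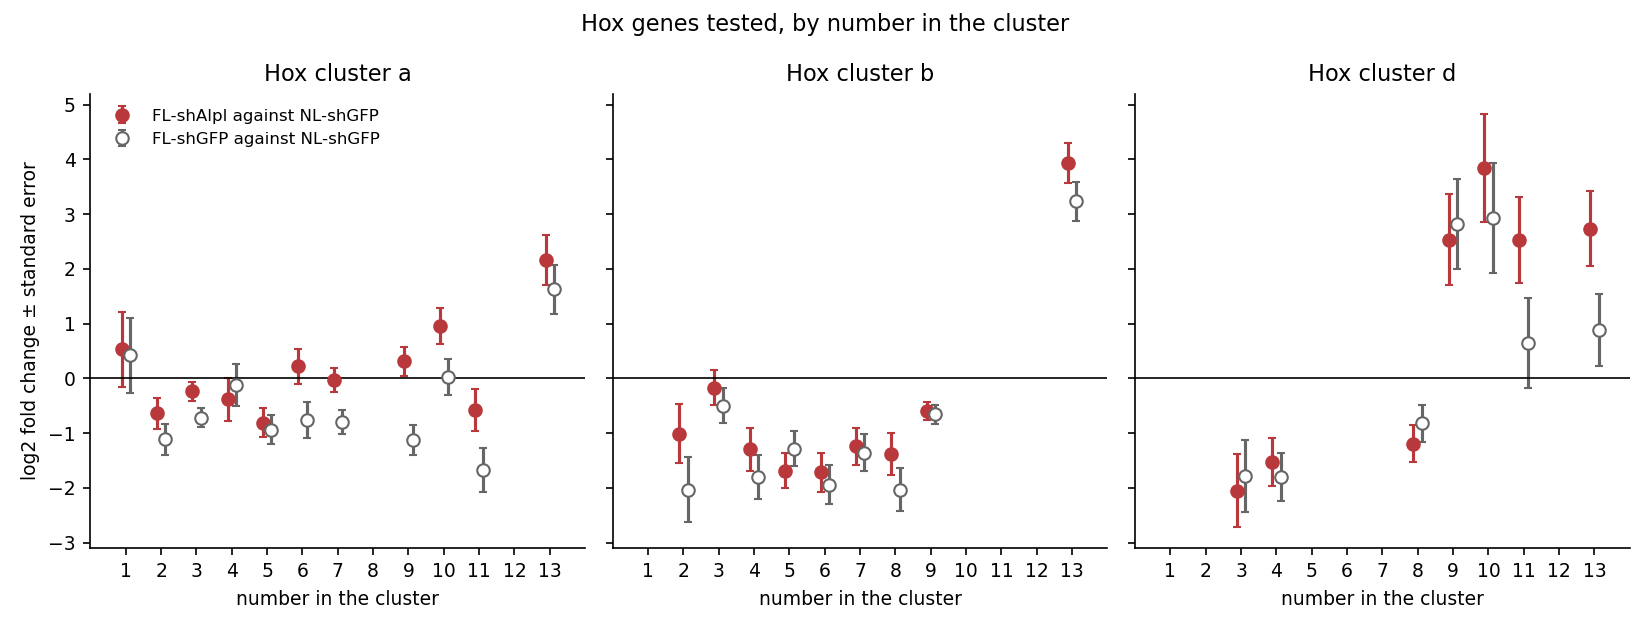
Log2 fold change (points) ± standard error (bars) of 27 Hox genes against their number in the cluster, for clusters a, b and d, in FL-shAlpl against NL-shGFP (filled) and FL-shGFP against NL-shGFP (open). Points of genes numbered 4 to 9 of cluster b lie below 0, Hoxb13 lies at 3.93 and the genes numbered 13 of clusters a and d lie at 2.16 and 2.74.

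Goblet cell genes were called in both directions. Of 28 goblet genes 7 rose and 16 fell, also without FL-shAlpl replicate 1 (7 and 16), and with both NL-shGFP pairs summed 3 rose and 13 fell. Muc2, the gel-forming mucin of colonic mucus, was at 21313, 19475, 20171, 18376 and 18179 CPM in NL-shGFP and at 6491, 12901, 9514, 8937 and 11235 in FL-shAlpl. All 5 FL-shAlpl libraries lay below every NL-shGFP library (-0.99 ± 0.18, edgeR adjusted p = 0.00192). They also lay below every FL-shGFP library, which ranged over 14388 to 17109 CPM (-0.70 ± 0.18, edgeR adjusted p = 0.00797), and FL-shGFP itself did not pass against NL-shGFP (-0.29 ± 0.18, edgeR adjusted p = 0.189). Spdef, the transcription factor of goblet maturation, went from 129, 137, 229, 227 and 200.2 CPM to 74.3, 62.8, 76.7, 99.1 and 88.3 (-1.20 ± 0.19, edgeR adjusted p = 0.000891) and was below FL-shGFP too (-0.76 ± 0.19, edgeR adjusted p = 0.00740). Agr2, the disulfide isomerase needed for Muc2, went from 3366, 3546, 3766, 3760 and 3398 CPM to 1376, 1597, 1420, 1360 and 1812 (-1.24 ± 0.15, edgeR adjusted p = 0.000114), and FL-shGFP was at 1773 ± 352 CPM. The secretory fate factor Atoh1 (-0.64 ± 0.17, edgeR adjusted p = 0.0199), the glycosyltransferase Galnt12 (-0.72 ± 0.10, edgeR adjusted p = 0.000221), the disulfide isomerase Pdia5 (-1.19 ± 0.17, edgeR adjusted p = 0.000369) and the kallikrein Klk1 (-1.11 ± 0.23, edgeR adjusted p = 0.00409) fell as well.

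The goblet products that rose included Clca1, a mucus-processing protease, and Zg16, a lectin that binds bacteria. Clca1 was at 694, 729, 346, 314 and 111 CPM in NL-shGFP and at 1103, 6237, 4279, 3814 and 8909 in FL-shAlpl, without overlap (3.47 ± 0.75, edgeR adjusted p = 0.00622), and FL-shGFP was at 5105 ± 3901. Zg16 was at 993, 1146, 721, 729.5 and 499.9 CPM in NL-shGFP and at 1189, 4810, 2294, 3735 and 3169 in FL-shAlpl. The lowest FL-shAlpl library, replicate 1, lay just above the highest NL-shGFP library, and the gene passed (1.89 ± 0.40, edgeR adjusted p = 0.00496). It was lower than in FL-shGFP (-1.54 ± 0.39, edgeR adjusted p = 0.00824). In both genes replicate 1 was the lowest FL-shAlpl library and NL-shGFP replicate 5 the lowest of its group.

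**Figure D4:**
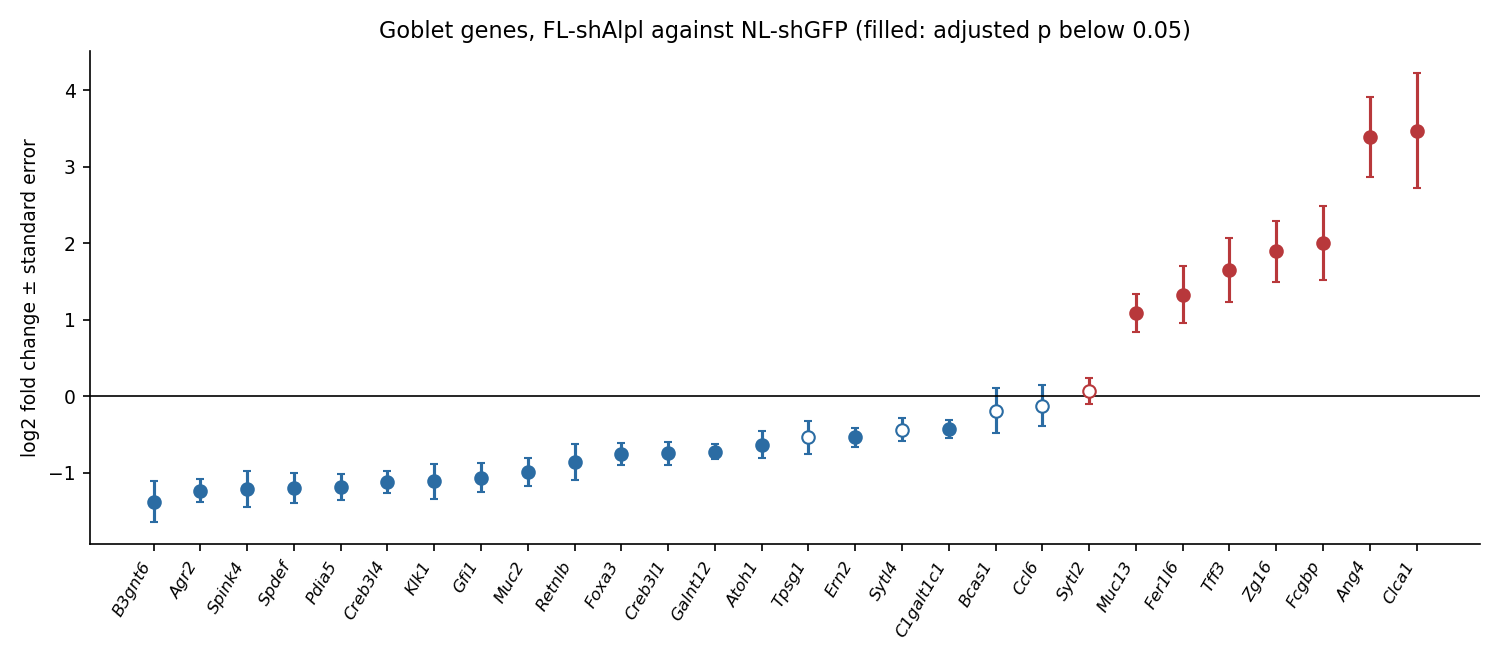
Log2 fold change ± standard error of the 28 tested goblet genes in FL-shAlpl against NL-shGFP, in order of size, filled where the edgeR adjusted p was below 0.05. The 7 rises stand at the right end, led by Clca1 at 3.47 and Ang4 at 3.39, and the 16 falls, among them Muc2 at -0.99, stand below 0.

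Among secretory genes of the crypt base, 4 of 15 rose and 7 fell. Mptx1, a mucosal pentraxin, was at 595, 3559, 2036, 1559 and 5171 CPM in FL-shAlpl, against 19.2, 20.8, 22.6, 18.3 and 5.51 in NL-shGFP and 355, 399, 100.3, 203 and 76.6 in FL-shGFP, so that the 3 groups did not overlap (7.23 ± 0.72, edgeR adjusted p = 4.31e-05). Its level exceeded that of FL-shGFP as well (3.51 ± 0.61, edgeR adjusted p = 0.000917), and it was lowest in replicate 1 and highest in replicate 5 of FL-shAlpl. Its neighbour in sequence Mptx2 also rose (8.58 ± 1.47, edgeR adjusted p = 0.00149), and reads of such near copies may be split by the counting. Ang4, an antimicrobial ribonuclease, was at 169, 375, 278, 298 and 427 CPM in FL-shAlpl, against 43.4, 48.5, 19.4, 19.6 and 16.5 in NL-shGFP and 3.95 to 26.9 in FL-shGFP. It rose against both (3.39 ± 0.52, edgeR adjusted p = 0.000735 and 4.50 ± 0.55, edgeR adjusted p = 0.000104), while FL-shGFP did not pass against NL-shGFP (-1.11 ± 0.49, edgeR adjusted p = 0.0738). Itln1, a lectin of Paneth and goblet cells, was at 3.03, 4.04, 1.63, 1.43 and 1.02 CPM in NL-shGFP and at 114, 15.7, 20.1, 19.7 and 21.9 in FL-shAlpl. Replicate 1 was far above the other 4, and these still lay above every NL-shGFP library (fold change 4.10 ± 0.64, edgeR adjusted p = 0.000847, without replicate 1 3.11, edgeR adjusted p = 0.000327). The receptor Kit (-0.81 ± 0.11, edgeR adjusted p = 0.000282), the Notch ligand Dll1 (-0.93 ± 0.17, edgeR adjusted p = 0.00163) and the surface glycoprotein Cd24a (-1.06 ± 0.13, edgeR adjusted p = 0.000146) fell. Cd24a ranged from 906 to 969.5 CPM in NL-shGFP and from 383 to 529.9 in FL-shAlpl. Reg4, a lectin of deep crypt secretory cells, was at 905, 985, 399.8, 264 and 447 CPM in NL-shGFP and at 569, 85.7, 115, 73.2 and 35.6 in FL-shAlpl. Only FL-shAlpl replicate 1 was inside the NL-shGFP range, and Reg4 passed without it (-2.95, edgeR adjusted p = 0.00679) and not with it (-1.77 ± 0.74, edgeR adjusted p = 0.112).

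Of 41 enteroendocrine genes 3 rose and 13 fell. The differentiation factor Neurod1 (-1.32 ± 0.23, edgeR adjusted p = 0.00128), the factor Rfx6 (-0.89 ± 0.22, edgeR adjusted p = 0.0127), the short-chain fatty acid receptor Ffar2 (-1.15 ± 0.16, edgeR adjusted p = 0.000362) and somatostatin, Sst (-1.62 ± 0.42, edgeR adjusted p = 0.0148), fell. Sst was at 7.16, 10.6, 7.88, 6.48 and 4.15 CPM in NL-shGFP and at 1.903, 1.8003, 1.02, 2.04 and 5.07 in FL-shAlpl, with only FL-shAlpl replicate 5 inside the NL-shGFP range. Tac1, the precursor of substance P, rose (2.23 ± 0.53, edgeR adjusted p = 0.0102), from 8.18, 8.15, 10.98, 12.1 and 8.04 CPM to 24.9, 75.9, 13.6, 21.4 and 87.2. The proglucagon gene Gcg (0.16 ± 0.39, edgeR adjusted p = 0.818), peptide YY, Pyy (1.05 ± 0.40, edgeR adjusted p = 0.0803), and the granin Chga (-0.41 ± 0.37, edgeR adjusted p = 0.496) did not pass. The 13 falls were 9 without FL-shAlpl replicate 1, 6 without replicate 2, 7 without replicate 4, 8 without NL-shGFP replicate 3, 8 with totals alone and 5 with both NL-shGFP pairs summed. Of 25 tuft cell genes 0 rose and 0 fell by edgeR, with 1 at an unadjusted p below 0.05, 0 by DESeq2 and 1 by limma-voom, and 1 rose without FL-shAlpl replicate 1.

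Genes of the endoplasmic reticulum, in which secreted proteins fold, were lower: of 32 tested, 16 fell and 0 rose, with a median of -0.33. Syvn1, the ubiquitin ligase of misfolded proteins (-1.01 ± 0.12, edgeR adjusted p = 0.000114), Creld2 (-0.98 ± 0.16, edgeR adjusted p = 0.00101), the disulfide isomerase Pdia6 (-0.71 ± 0.11, edgeR adjusted p = 0.000779), the chaperone Hsp90b1 (-0.49 ± 0.11, edgeR adjusted p = 0.00756), the stress sensor Eif2ak3 (-0.53 ± 0.08, edgeR adjusted p = 0.000490) and the transcription factor Atf4 (-0.42 ± 0.09, edgeR adjusted p = 0.00603) were among them. The lectin chaperones Calr (-0.28 ± 0.10, edgeR adjusted p = 0.0688) and Canx (-0.16 ± 0.11, edgeR adjusted p = 0.380) and the transcription factor Xbp1 (-0.28 ± 0.11, edgeR adjusted p = 0.0831) did not pass. In FL-shGFP against NL-shGFP 13 of the list fell and 4 rose. With both NL-shGFP pairs summed 10 fell, and with totals alone 5 fell. Of 29 genes of the amino acid response 5 fell and 0 rose, among them Cbs (-1.28 ± 0.32, edgeR adjusted p = 0.0134), Pycr1 (-1.05 ± 0.14, edgeR adjusted p = 0.000183) and Stc2 (-0.94 ± 0.16, edgeR adjusted p = 0.00143), which act in cysteine and proline synthesis and as a secreted stress factor. Of these 29, 2 rose and 5 fell without FL-shAlpl replicate 1.

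Heat shock genes, which encode chaperones of the cytosol, fell in 7 of 26 cases and rose in 0, and without FL-shAlpl replicate 1 10 fell. Hspa1a was at 5.66, 4.39, 15.7, 6.75 and 19.5 CPM in NL-shGFP and at 0.476, 0.883, 0.948, 0.791 and 0.643 in FL-shAlpl (-3.79 ± 0.61, edgeR adjusted p = 0.00104). Hspa1b was at 25.8, 25.7, 94.4, 35.8 and 135 CPM in NL-shGFP and at 5.66, 6.92, 8.798, 6.91 and 6.25 in FL-shAlpl (-3.19 ± 0.50, edgeR adjusted p = 0.000807). Both inducible Hsp70 genes were without overlap, and within NL-shGFP replicates 3 and 5 were highest. FL-shGFP was at 1.19 ± 0.976 and 8.78 ± 4.83 CPM. Hsph1, an Hsp110 chaperone, fell from 79.9, 76.1, 144, 105.2 and 233 CPM to 53.8, 17.4, 47.7, 41.02 and 21.6 (-1.81 ± 0.37, edgeR adjusted p = 0.00404) and was above FL-shGFP (1.53 ± 0.37, edgeR adjusted p = 0.00599). The constitutive chaperones Hspa8 (-0.41 ± 0.21, edgeR adjusted p = 0.188) and Hsp90ab1 (-0.21 ± 0.25, edgeR adjusted p = 0.622) did not pass. With totals alone 4 of the list fell.

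Hspa1a and Hspa1b are near copies, and the 250 bases before their start sites are shown because both fell together and the promoters can hardly be told apart. Of these 250 bases 247 are identical (98.8%). Each holds 1 match to GAA and TTC 2 bases apart, the core of a heat shock element, 104 bases before the start and shown in capitals. Such a match stands in 6.69% of all 32851 promoter windows of this length, and in the windows of 3 of the 7 heat shock genes that fell (Dnaja1, Hspa1a and Hspa1b). By gene it was held by 7.73% of all genes, and by 7 of the 20 heat shock genes with a window. Sequences are those of RefSeq on GRCm38.p6, read 5′ to 3′ on the gene's strand. Hspa1a lies on the minus strand at chr17:34972157-34972406 and Hspa1b on the minus strand at chr17:34959239-34959488. The authors' counts of 2 genes this alike may share reads.
Hspa1a: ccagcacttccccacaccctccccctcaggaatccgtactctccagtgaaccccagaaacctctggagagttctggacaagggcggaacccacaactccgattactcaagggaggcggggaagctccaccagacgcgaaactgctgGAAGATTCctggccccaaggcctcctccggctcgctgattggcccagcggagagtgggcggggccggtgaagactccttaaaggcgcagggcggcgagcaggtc
Hspa1b: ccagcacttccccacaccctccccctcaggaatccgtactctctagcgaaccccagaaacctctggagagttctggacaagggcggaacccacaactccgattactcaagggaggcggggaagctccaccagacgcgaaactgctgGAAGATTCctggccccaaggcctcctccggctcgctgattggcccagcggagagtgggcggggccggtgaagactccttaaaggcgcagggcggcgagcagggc

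Interferon-induced genes had the lowest median of all lists. Of 49 tested, 26 fell, 0 rose and 23 did not pass, with a median of -1.31 against 0.05 for all genes. Without FL-shAlpl replicate 1, 28 fell and 1 rose. In FL-shGFP against NL-shGFP 19 fell and 1 rose, and between the 2 fatty liver groups 6 fell and 3 rose. Ido1, which degrades tryptophan, was at 283, 284, 372, 411 and 30.3 CPM in NL-shGFP and at 27.1, 9.45, 4.34, 7.805 and 12.6 in FL-shAlpl (-4.49 ± 0.78, edgeR adjusted p = 0.00159). The groups did not overlap, but NL-shGFP replicate 5 stood just above the highest FL-shAlpl library and far below the other 4 of its group. The GTPase genes Iigp1 and Tgtp2 showed the same order. Iigp1 was at 311, 275, 279.7, 307 and 54.6 CPM in NL-shGFP and at 51.9, 12.3, 13.7, 12.03 and 33.5 in FL-shAlpl (-3.31 ± 0.88, edgeR adjusted p = 0.0186). Tgtp2 was at 46.2, 45.2, 38.6, 42.1 and 9.24 CPM in NL-shGFP and at 7.14, 1.78, 1.27, 1.77 and 3.39 in FL-shAlpl (-3.56 ± 0.67, edgeR adjusted p = 0.00260). Igtp was at 107, 122, 100.8, 111 and 30.98 CPM in NL-shGFP and at 35.1, 15.1, 13.5, 12.7 and 20.2 in FL-shAlpl (-2.29 ± 0.57, edgeR adjusted p = 0.0135), and here NL-shGFP replicate 5 lay below FL-shAlpl replicate 1. Oas2, an antiviral oligoadenylate synthetase, was at 22.1, 22.4, 12.4, 12.7 and 5.46 CPM in NL-shGFP and at 4.96, 1.696, 2.73, 2.35 and 2.45 in FL-shAlpl (-2.40 ± 0.48, edgeR adjusted p = 0.00405) and was lower than in FL-shGFP too (-2.33 ± 0.48, edgeR adjusted p = 0.00262). Ifng, the gene of interferon gamma itself, fell (-4.78 ± 0.82, edgeR adjusted p = 0.00136) at a mean of 2.004 ± 1.05 CPM in NL-shGFP and 0.0666 ± 0.106 in FL-shAlpl.

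The interferon result rested on 4 of the 5 NL-shGFP libraries. The median member, on the scale of log2(CPM + 0.5) less the NL-shGFP mean, stood at 0.54, 0.54, 0.08, 0.17 and -1.45 in NL-shGFP replicates 1 to 5 and at -0.70, -1.35, -0.92, -1.53 and -1.15 in FL-shAlpl. NL-shGFP replicate 5 was within the FL-shAlpl range. Without it 35 members fell, without NL-shGFP replicate 1 or 2 15, without FL-shAlpl replicate 2, 3 or 4 12, 17 and 16, and with both NL-shGFP pairs summed 8.

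**Figure D5:**
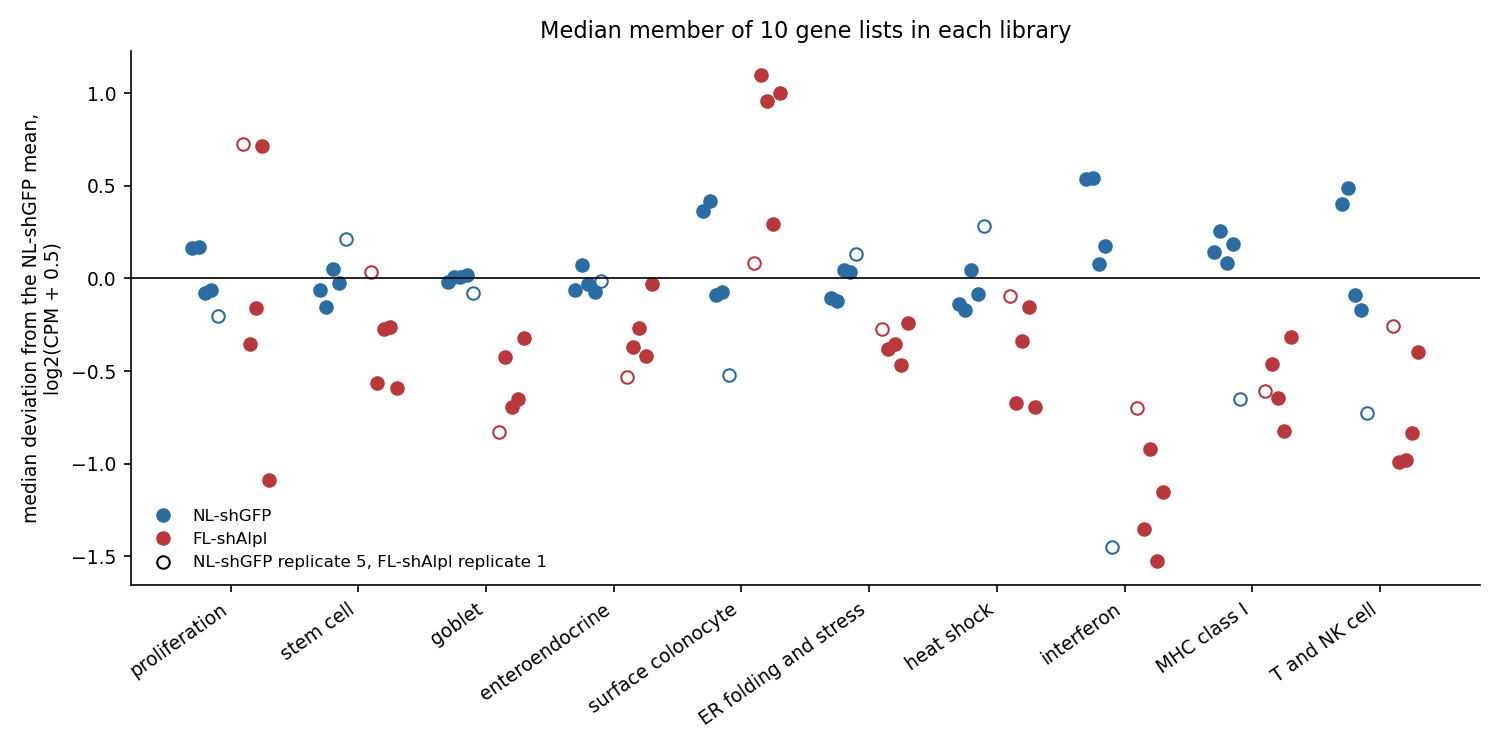
Median deviation of the members of 10 gene lists from the NL-shGFP mean, in log2(CPM + 0.5), for each library of NL-shGFP (blue) and FL-shAlpl (red); open symbols are NL-shGFP replicate 5 and FL-shAlpl replicate 1. In the interferon list NL-shGFP replicate 5 stands at -1.45, among the FL-shAlpl libraries at -0.70 to -1.53, whereas in the goblet list all 5 NL-shGFP libraries stand between -0.08 and 0.02 and all FL-shAlpl libraries lie below them.

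Promoters of the GTPase genes Tgtp2 and Igtp are shown because these genes both fell and hold a match to the letters of an interferon-stimulated element. The match searched was GAAA and GAAA 2 bases apart on either strand, in capitals. It stood 70 bases before the start in Tgtp2 and 34 bases before it in Igtp. Of the 26 interferon genes that fell, 14 had a promoter window in the RefSeq table, and 10 of these held a match (Bst2, Cxcl10, Gbp7, Igtp, Irgm1, Irgm2, Oas3, Stat2, Tgtp1 and Tgtp2), against 3.46% of all genes and 2.98% of all windows. In the whole list 19 of the 31 genes with a window held a match, so members that did not fall held it too. A match is a description of the letters and no sign of binding, and Tgtp2 has a near copy, Tgtp1, in the same list. Tgtp2 lies on the minus strand at chr11:49064213-49064462 and Igtp on the plus strand at chr11:58199306-58199555 of GRCm38.p6.
Tgtp2: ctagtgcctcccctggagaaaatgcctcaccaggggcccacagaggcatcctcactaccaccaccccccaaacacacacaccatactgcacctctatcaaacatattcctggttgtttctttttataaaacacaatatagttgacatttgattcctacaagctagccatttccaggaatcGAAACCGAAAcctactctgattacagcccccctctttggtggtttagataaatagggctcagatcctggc
Igtp: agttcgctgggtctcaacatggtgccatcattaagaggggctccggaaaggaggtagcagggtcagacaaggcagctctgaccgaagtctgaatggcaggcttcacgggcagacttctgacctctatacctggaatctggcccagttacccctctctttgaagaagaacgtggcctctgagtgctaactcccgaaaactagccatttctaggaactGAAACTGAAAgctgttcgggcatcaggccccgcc

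Antigen presentation followed the same split of libraries. Of 28 MHC class I genes 13 fell and 0 rose, 20 fell without NL-shGFP replicate 5 and 5 with both NL-shGFP pairs summed. Nlrc5, the transactivator of class I genes (-2.15 ± 0.40, edgeR adjusted p = 0.00275), the peptide transporter Tap1 (-1.66 ± 0.39, edgeR adjusted p = 0.00930) and the class I genes H2-Q4 (-1.21 ± 0.21, edgeR adjusted p = 0.00142) and H2-T3 (-0.80 ± 0.18, edgeR adjusted p = 0.00632) fell. Tap1 was at 147, 159.8, 123, 132 and 49.2 CPM in NL-shGFP and at 58.3, 31.99, 30.4, 29.1 and 44.6 in FL-shAlpl, with NL-shGFP replicate 5 below FL-shAlpl replicate 1. The abundant H2-D1 (-0.25 ± 0.22, edgeR adjusted p = 0.486) and B2m (-0.32 ± 0.29, edgeR adjusted p = 0.488) did not pass. Of 11 class II genes 3 fell, the transactivator Ciita (-1.61 ± 0.45, edgeR adjusted p = 0.0225) and the peptide loaders H2-DMa (-1.54 ± 0.38, edgeR adjusted p = 0.0128) and H2-DMb1 (-1.61 ± 0.41, edgeR adjusted p = 0.0141), with 0 falls with both pairs summed and 5 without NL-shGFP replicate 5. Reads of H2-Q genes, which are near copies, may be split by the counting.

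Of 30 T and natural killer cell genes tested, 1 rose, 10 fell and 19 did not pass against NL-shGFP, with a median of -0.96, and 0 rose and 29 fell against FL-shGFP. In FL-shGFP against NL-shGFP 29 rose and 0 fell. Ccl5, a chemokine of these cells, was at 11.8, 2.15, 3.03, 3.996 and 7.17 CPM in FL-shAlpl, against 28.2, 32.6, 15.2, 17.6 and 5.49 in NL-shGFP and 42.4 to 135 in FL-shGFP (-1.81 ± 0.51, edgeR adjusted p = 0.0240). Cd3e, a subunit of the T cell receptor, was at 2.01, 1.97, 1.37, 1.24 and 0.909 CPM in NL-shGFP and 0.901, 0.398, 0.398, 0.541 and 0.939 in FL-shAlpl (-1.24 ± 0.36, edgeR adjusted p = 0.0281). The granzyme B gene Gzmb was at 14.2, 17.5, 5.82, 6.09 and 2.44 CPM in NL-shGFP and at 3.13, 0.866, 2.14, 1.83 and 4.15 in FL-shAlpl (-1.93 ± 0.48, edgeR adjusted p = 0.0130). In all 3 genes NL-shGFP replicate 5 was the lowest of its group and inside the FL-shAlpl range. The summed CPM of 4 T cell markers was 4.55 to 16.8 in NL-shGFP and 3.39 to 7.83 in FL-shAlpl, and none of the 4 was at 0 in every library of a group. The 10 falls became 13 without FL-shAlpl replicate 1, 14 without NL-shGFP replicate 5, 1 without FL-shAlpl replicate 2, and 0 with both pairs summed. They became 3 without FL-shAlpl replicate 3, 4 without replicate 4, 1 without NL-shGFP replicate 1 and 2 without NL-shGFP replicate 2. The part of T cell RNA in the interferon and MHC results was not tested.

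Cytokine genes moved in both directions, 4 of 29 rising and 6 falling. Il1b was at 123, 140.2, 118, 133 and 19.1 CPM in NL-shGFP and at 55.9, 19.7, 16.8, 7.87 and 9.74 in FL-shAlpl (-2.28 ± 0.60, edgeR adjusted p = 0.0170), where NL-shGFP replicate 5 lay inside the FL-shAlpl range, and Il1a (-2.91 ± 0.72, edgeR adjusted p = 0.0130), Il6 (-3.24 ± 0.96, edgeR adjusted p = 0.0301) and Tnfaip2 (-2.14 ± 0.50, edgeR adjusted p = 0.00947) fell. No member fell with both NL-shGFP pairs summed, 10 fell without NL-shGFP replicate 5, and 3 fell without NL-shGFP replicate 2 or FL-shAlpl replicate 5. The risers included 2 epithelial chemokines and the NF-kB subunit Relb (0.85 ± 0.15, edgeR adjusted p = 0.00185). Ccl20, which attracts cells with the receptor Ccr6, was at 2.098, 1.99, 1.44, 1.27 and 0.739 CPM in NL-shGFP and at 4.78, 41.3, 42.6, 7.76 and 70.8 in FL-shAlpl (4.47 ± 0.66, edgeR adjusted p = 0.000568), and Ccl28, which attracts plasma cells, was at 71.9 ± 10.9 and 145 ± 45.9 (1.01 ± 0.20, edgeR adjusted p = 0.00347). Il18, an epithelial cytokine of the interleukin-1 family counted in the antimicrobial list, was at 21.7, 21.6, 25.6, 28.5 and 34.2 CPM in NL-shGFP and at 64.7, 241, 138, 87.2 and 264 in FL-shAlpl, without overlap (2.59 ± 0.34, edgeR adjusted p = 0.000245). FL-shGFP was at 159.5 ± 36.9 CPM.

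Absorptive genes of the crypt surface were raised in part. Of 38 surface colonocyte genes 11 rose and 1 fell, and without FL-shAlpl replicate 1 17 rose. In FL-shGFP against NL-shGFP 32 rose and 0 fell, and FL-shAlpl was below FL-shGFP in 25. Slc26a3, the chloride-bicarbonate exchanger, was at 176, 423, 361, 223 and 463 CPM in FL-shAlpl, against 205, 196, 100.6, 106 and 94.1 in NL-shGFP and 1314, 1059, 742, 1548 and 451 in FL-shGFP (1.23 ± 0.36, edgeR adjusted p = 0.0273), with FL-shAlpl replicate 1 inside the NL-shGFP range. Lypd8, which keeps flagellated bacteria from the epithelium, was at 3694, 4005, 2905, 2978 and 1656 CPM in NL-shGFP and at 4155, 12784, 8170, 7133 and 10367 in FL-shAlpl, all above (1.48 ± 0.34, edgeR adjusted p = 0.00849), and was lower than in FL-shGFP (-0.97 ± 0.34, edgeR adjusted p = 0.0372). The membrane mucin Muc3 (1.49 ± 0.34, edgeR adjusted p = 0.00825) and the carbonic anhydrase Car2 (1.06 ± 0.24, edgeR adjusted p = 0.00770) rose. Fxyd4, a regulator of the sodium pump, was at 0.1199, 0.149, 0.4903, 0.476 and 0.227 CPM in NL-shGFP and at 8.74, 12.03, 6.31, 4.72 and 13 in FL-shAlpl (4.94 ± 0.58, edgeR adjusted p = 0.000114). Scnn1b, a subunit of the epithelial sodium channel, was the one that fell, from 19.5, 18.3, 16.8, 17.2 and 17.6 CPM to 5.18, 8.98, 6.94, 5.99 and 10.2 (-1.26 ± 0.18, edgeR adjusted p = 0.000430), although FL-shGFP was above NL-shGFP (0.50 ± 0.18, edgeR adjusted p = 0.0330). Krt20 (-0.11 ± 0.32, edgeR adjusted p = 0.863) and Cdh17 (0.40 ± 0.18, edgeR adjusted p = 0.129) did not pass. The 11 rises were 7 without NL-shGFP replicate 3 or 4, 6 without FL-shAlpl replicate 2, 5 with both pairs summed and 21 with totals alone.

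Barrier genes rose in part. Cldn8, a tight junction claudin of the distal colon, was at 18.998, 20.1, 25.2, 27.7 and 27.3 CPM in NL-shGFP and at 51.3, 217, 159.98, 58.9 and 298 in FL-shAlpl, without overlap (2.72 ± 0.41, edgeR adjusted p = 0.000594), and FL-shGFP was at 142 ± 30.7. It was one of 6 of 23 claudin and junction genes that rose, with the scaffold gene Tjp1 (0.67 ± 0.18, edgeR adjusted p = 0.0194) and the desmosomal Dsg2 (0.67 ± 0.17, edgeR adjusted p = 0.0120), while 1 fell. With totals alone 11 rose. Tgm3, a transglutaminase of cornified epithelia, was at 6.02, 5.51, 20.1, 19.4 and 2.25 CPM in NL-shGFP and at 141, 586, 366, 287 and 644 in FL-shAlpl (5.25 ± 0.82, edgeR adjusted p = 0.000853), and the caspase Casp14 (4.05 ± 0.84, edgeR adjusted p = 0.00470) rose with it. Of 29 genes of the fetal-like regenerative state 11 rose and 1 fell. The EGF receptor ligands Areg (1.38 ± 0.33, edgeR adjusted p = 0.00985) and Ereg (1.64 ± 0.50, edgeR adjusted p = 0.0345), Clu (1.75 ± 0.38, edgeR adjusted p = 0.00589), the annexins Anxa1 (0.89 ± 0.15, edgeR adjusted p = 0.00114) and Anxa3 (1.49 ± 0.16, edgeR adjusted p = 5.81e-05) and tissue factor, F3 (1.19 ± 0.28, edgeR adjusted p = 0.00944), rose, and Krt7 (-0.51 ± 0.09, edgeR adjusted p = 0.00134) fell. The rises in that list were 7 without FL-shAlpl replicate 2 and 5 with both NL-shGFP pairs summed. Among 24 keratin and cornified envelope genes 6 rose and 3 fell (2 rose with both pairs summed), with the abundant simple keratins Krt8 (0.56 ± 0.17, edgeR adjusted p = 0.0320) and Krt19 (0.58 ± 0.14, edgeR adjusted p = 0.00935) among the rises.

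Antimicrobial genes rose more often than they fell. Of 29 tested, 10 rose and 3 fell, and 6 rose without FL-shAlpl replicate 2. Beside Ang4, Itln1, Zg16, Il18 and Lypd8, the whey acidic protein Wfdc2 was at 23.2, 27.6, 26.6, 26.1 and 23.96 CPM in NL-shGFP and at 103, 177, 169, 118 and 189 in FL-shAlpl, without overlap (2.57 ± 0.21, edgeR adjusted p = 1.17e-05), and was above FL-shGFP (1.08 ± 0.20, edgeR adjusted p = 0.00143). The beta-defensin Defb37 fell (-1.73 ± 0.37, edgeR adjusted p = 0.00500). The abundant C-type lectins Reg3b (0.22 ± 0.29, edgeR adjusted p = 0.645) and Reg3g (0.45 ± 0.37, edgeR adjusted p = 0.443) and the hydrogen peroxide source Duox2 (0.16 ± 0.19, edgeR adjusted p = 0.635) did not pass. Of 29 genes of gasdermins and cell death 2 rose, Il18 and Casp14, and 4 fell, among them the inflammasome sensor Nlrp3 (-2.16 ± 0.57, edgeR adjusted p = 0.0176) and the survival gene Bcl2 (-0.74 ± 0.15, edgeR adjusted p = 0.00326). There were 4 rises and 4 falls without FL-shAlpl replicate 1, and 2 of each with both pairs summed. Reads of the near copies Gsdmc2 (-0.56 ± 0.43, edgeR adjusted p = 0.415) and Gsdmc4 (1.03 ± 0.57, edgeR adjusted p = 0.227), which did not pass, may be split by the counting.

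Growth factor genes differed by member. In the list of the EGF receptor, its ligands and targets 3 of 22 rose, Areg, Ereg and the ligand Btc (0.73 ± 0.18, edgeR adjusted p = 0.0111), and 2 fell. The rises were 5 without FL-shAlpl replicate 1 and 1 without replicate 2 or with both pairs summed. With all libraries both counts of this list were near the shares over all genes tested, 9.31% higher and 8.13% lower. Etv5, a transcription factor induced by the same pathway, was at 60.5, 54.3, 79.6, 78.3 and 72.3 CPM in NL-shGFP and at 33.4, 21.5, 28.1, 33.3 and 26.4 in FL-shAlpl, without overlap (-1.27 ± 0.23, edgeR adjusted p = 0.00205), and the ligand Egf also fell (-0.73 ± 0.19, edgeR adjusted p = 0.0140). The receptors Erbb2 (0.17 ± 0.10, edgeR adjusted p = 0.275) and Erbb3 (0.29 ± 0.14, edgeR adjusted p = 0.177) did not pass. In the insulin and IGF list 7 of 26 rose and 0 fell. They were the ligand Igf1 (3.03 ± 0.75, edgeR adjusted p = 0.0124), the binding proteins Igfbp3, Igfbp5 and Igfbp7, the adaptor Irs1 (2.95 ± 0.54, edgeR adjusted p = 0.00208), the receptor Insr (0.56 ± 0.18, edgeR adjusted p = 0.0387) and the kinase Mtor. These 7 rises were between 2 and 3 when any of NL-shGFP replicates 1 to 5 or FL-shAlpl replicate 2 or 5 was left out, and 1 with both NL-shGFP pairs summed. Of 16 Notch genes 1 rose, the transcription factor Rbpj (0.33 ± 0.10, edgeR adjusted p = 0.0388), which did not pass without FL-shAlpl replicate 1. In the same list 3 fell, the ligands Jag1 (-0.60 ± 0.19, edgeR adjusted p = 0.0392) and Dll1 and the secretory fate factor Atoh1. In that list 1 fell without NL-shGFP replicate 3 or 4 and with both pairs summed. Of 29 immediate early genes, which report recent stimulation, 0 rose and 4 fell, which were Nr4a2 (-1.20 ± 0.18, edgeR adjusted p = 0.000496), Egr2 (-1.90 ± 0.52, edgeR adjusted p = 0.0195), Nr4a1 (-0.82 ± 0.23, edgeR adjusted p = 0.0210) and Dusp2 (-1.97 ± 0.60, edgeR adjusted p = 0.0350). In that list 1 rose and 6 fell without FL-shAlpl replicate 1, and 2 fell without NL-shGFP replicate 1, 2 or 4.

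Genes of the circadian clock rose more often than they fell: of 20 tested, 8 rose and 1, Nfil3, fell. Per2 and Cry1 had negative log2 fold changes that did not pass. Nr1d1, a repressor of the clock loop, was at 13.6, 40.5, 20.1, 16.5 and 28.4 CPM in FL-shAlpl, against 5.69, 6.603, 5.23, 4.16 and 3.64 in NL-shGFP and 37.6, 40.3, 41.8, 44.01 and 23.2 in FL-shGFP, without overlap between FL-shAlpl and NL-shGFP (2.23 ± 0.28, edgeR adjusted p = 0.000172). The output factors Dbp (2.0 ± 0.33, edgeR adjusted p = 0.00106) and Tef (1.34 ± 0.18, edgeR adjusted p = 0.000282), the repressor Nr1d2 (1.01 ± 0.12, edgeR adjusted p = 9.97e-05), Per3 (0.85 ± 0.18, edgeR adjusted p = 0.00411) and Clock (0.48 ± 0.11, edgeR adjusted p = 0.00716) rose too, and Arntl did not pass (0.12 ± 0.15, edgeR adjusted p = 0.636). With both NL-shGFP pairs summed 5 rose. The labels give no time of day for the samples, so a difference in sampling time cannot be told apart from the groups. Of 23 genes in the glucocorticoid list, which holds the hormone's receptors and enzymes beside target genes, 7 rose and 0 fell, and in FL-shGFP against NL-shGFP 22 rose. Zbtb16 rose (3.10 ± 0.36, edgeR adjusted p = 9.89e-05) and was far below FL-shGFP (-3.07 ± 0.31, edgeR adjusted p = 3.69e-05), and Klf9 (0.65 ± 0.18, edgeR adjusted p = 0.0247) and the metallothionein Mt1 (1.69 ± 0.30, edgeR adjusted p = 0.00195) rose, and the nuclear receptor Nr5a2 is among the 7. Fkbp5, a cochaperone of the receptor, did not pass (0.27 ± 0.19, edgeR adjusted p = 0.349), and its mean was 159 ± 38.9 CPM in FL-shAlpl, against 132 ± 19.9 in NL-shGFP and 481 ± 112 in FL-shGFP. Leaving out NL-shGFP replicate 2 or FL-shAlpl replicate 5 gave 3 rises in the list, leaving out NL-shGFP replicate 3 or FL-shAlpl replicate 2 gave 4, and summing both pairs gave 3.

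Lipid and bile acid genes were called in both directions. Of 37 genes of PPAR and fatty acid oxidation 9 rose and 1 fell. Among the rises were the carnitine palmitoyltransferase Cpt1a (0.58 ± 0.14, edgeR adjusted p = 0.0119), the carnitine carrier Slc25a20 (1.02 ± 0.27, edgeR adjusted p = 0.0188), the dehydrogenase Acadl (0.75 ± 0.14, edgeR adjusted p = 0.00287) and the coactivator Ppargc1a (1.09 ± 0.25, edgeR adjusted p = 0.00866). Angptl4, a PPAR target that inhibits lipoprotein lipase, was at 0.994 ± 0.349 CPM in FL-shAlpl, against 0.297 ± 0.104 in NL-shGFP and 26.2 ± 17.01 in FL-shGFP, and passed against both (1.73 ± 0.47, edgeR adjusted p = 0.0201 and -4.73 ± 0.44, edgeR adjusted p = 2.34e-05). The 9 rises were 13 without FL-shAlpl replicate 1, 4 without replicate 2, 3 with both pairs summed and 15 with totals alone. Scd1, which makes monounsaturated fatty acids, fell from 40.3, 38.4, 34.7, 35.3 and 17.7 CPM to 14.8, 8.36, 14.9, 8.85 and 6.75 (-1.63 ± 0.31, edgeR adjusted p = 0.00283), with FL-shGFP at 9.44 ± 3.796, while Scd2 (0.01 ± 0.23, edgeR adjusted p = 0.986) and Fasn (0.14 ± 0.14, edgeR adjusted p = 0.524) did not pass. Fads2, a desaturase of polyunsaturated fatty acids, rose (0.91 ± 0.21, edgeR adjusted p = 0.00890) and was above FL-shGFP (0.81 ± 0.21, edgeR adjusted p = 0.00906). Of 18 bile acid genes 7 rose and 2 fell, and the sterol exporters Abcg5 (2.13 ± 0.38, edgeR adjusted p = 0.00192) and Abcg8 (2.24 ± 0.40, edgeR adjusted p = 0.00179) rose. The ileal bile acid transporter Slc10a2 did not pass (0.84 ± 0.49, edgeR adjusted p = 0.260), with 226 ± 112 CPM in FL-shGFP and 34.3 ± 8.27 in FL-shAlpl. The 7 bile acid rises were 2 without NL-shGFP replicate 3, 4 without NL-shGFP replicate 4 or FL-shAlpl replicates 3 or 5, 3 without FL-shAlpl replicate 2 and 2 with both pairs summed, and 4 with upper-quartile factors.

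Of 31 choline and one-carbon genes 3 rose and 3 fell, near the shares over all genes tested (9.31% higher and 8.13% lower). The choline kinases Chka (-0.70 ± 0.15, edgeR adjusted p = 0.00553) and Chkb (-1.41 ± 0.32, edgeR adjusted p = 0.00712) and the phosphoethanolamine enzyme Pcyt2 (-0.43 ± 0.11, edgeR adjusted p = 0.0138) fell, and the choline transporter Slc44a1 (0.74 ± 0.14, edgeR adjusted p = 0.00318) rose. Bhmt, which uses the choline product betaine to remake methionine, was at 0, 0.199, 0, 0.0529 and 0 CPM in NL-shGFP and at 0.6798, 1.42, 0.664, 1.79 and 1.75 in FL-shAlpl (4.45 ± 0.94, edgeR adjusted p = 0.00518), and the next enzyme of that route, Dmgdh, rose as well (2.52 ± 0.42, edgeR adjusted p = 0.00114). FL-shGFP was at 2.31 ± 1.95 and 6.31 ± 2.93 CPM in these 2 genes. Of the list 6 rose without FL-shAlpl replicate 1, and with totals alone 8 rose and 1 fell. Pcx, the pyruvate carboxylase gene, was at 18.3, 20.7, 15.2, 13.2 and 11.8 CPM in NL-shGFP and at 33.8, 98.5, 61.5, 52.9 and 90.9 in FL-shAlpl, without overlap (2.09 ± 0.40, edgeR adjusted p = 0.00301). It belongs to the glucose list, in which 6 of 37 rose and 0 fell, with the glycolytic Pkm (0.64 ± 0.19, edgeR adjusted p = 0.0296) and Hk1 (0.50 ± 0.15, edgeR adjusted p = 0.0266) among them. That count was 1 without NL-shGFP replicate 1, 2 without NL-shGFP replicate 3 or 4 or FL-shAlpl replicate 2, 3 without NL-shGFP replicate 5 or FL-shAlpl replicate 4, 12 with totals alone and 1 with both pairs summed. Glul, which makes glutamine, was at 291, 677, 548, 472 and 687 CPM in FL-shAlpl, against 229, 218, 272, 263 and 348 in NL-shGFP and 257 to 432 in FL-shGFP (1.01 ± 0.21, edgeR adjusted p = 0.00509) and was above FL-shGFP too (0.72 ± 0.21, edgeR adjusted p = 0.0166). Hif1a, the oxygen-sensing transcription factor, rose (1.23 ± 0.17, edgeR adjusted p = 0.000300), while of 22 hypoxia genes 2 rose and 4 fell, among them the collagen hydroxylases P4ha1 (-1.05 ± 0.23, edgeR adjusted p = 0.00546) and P4ha2 (-1.59 ± 0.22, edgeR adjusted p = 0.000260). Of these 22, 3 rose and 2 fell without FL-shAlpl replicate 1, and 1 rose and 2 fell without NL-shGFP replicate 1, 2 or 3 or FL-shAlpl replicate 3 or 4, or with both pairs summed. Among 17 genes of alkaline phosphatases, phosphate transport and nucleotide breakdown 2 rose and 1 fell, 5 rose and 2 fell when FL-shAlpl replicate 1 was left out, and 1 rose and 0 fell when replicate 2 was. Nt5e, the ectonucleotidase that makes adenosine, was at 21.96, 22.4, 31.8, 32.95 and 5.03 CPM in NL-shGFP and at 32.3, 133, 83.2, 56.5 and 100.8 in FL-shAlpl (1.83 ± 0.50, edgeR adjusted p = 0.0211), and the phosphate carrier Slc34a2 rose too (2.16 ± 0.51, edgeR adjusted p = 0.0101).

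Xenobiotic genes went both ways, 14 of 47 rising and 5 falling. Cyp2c68 was at 1.47, 2.09, 3.01, 2.86 and 6.05 CPM in NL-shGFP and at 9.297, 58.7, 55.3, 9.32 and 101.1 in FL-shAlpl, all above (3.92 ± 0.77, edgeR adjusted p = 0.00363). Its relative Cyp2c55 was at 1078, 1129, 344, 337 and 231 CPM in NL-shGFP and at 45.4, 147, 321, 35.3 and 207 in FL-shAlpl (-2.05 ± 0.59, edgeR adjusted p = 0.0270), with 1 FL-shAlpl library inside the NL-shGFP range. The glutathione transferase Gsta4 (0.89 ± 0.14, edgeR adjusted p = 0.000900) and the glutathione synthesis subunit Gclm (0.76 ± 0.14, edgeR adjusted p = 0.00199) rose and were above FL-shGFP too (1.05 ± 0.14, edgeR adjusted p = 0.000186 and 0.57 ± 0.14, edgeR adjusted p = 0.00624). Of the list 9 rose and 3 fell without FL-shAlpl replicate 2, 3 fell without NL-shGFP replicate 1 or 2 or FL-shAlpl replicate 5 or with totals alone, and 8 rose and 1 fell with both NL-shGFP pairs summed.

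Mitochondrially encoded RNA took 32.9%, 30.8%, 37.5%, 36.7% and 28.0% of counts in NL-shGFP replicates 1 to 5 and 21.96%, 22.1%, 14.8%, 16.6% and 24.3% in FL-shAlpl. The groups did not overlap, and the difference of the means was -13.2 percentage points (exact permutation p = 0.00794, two-sided, the smallest possible). Of the 13 genes 8 fell and 0 rose, and mt-Cytb, the cytochrome b gene, fell from 58917, 53264, 77024, 73963 and 54667 CPM to 35415, 35076, 21113, 26133 and 40535 (-1.01 ± 0.23, edgeR adjusted p = 0.00825). With both NL-shGFP pairs summed 1 of 13 passed, and 5 passed without NL-shGFP replicate 1, 3 or 4 or FL-shAlpl replicate 3. Of 49 nuclear genes of the respiratory chain, 2 rose and 2 fell, with a median of 0.06. With mitochondrially encoded genes left out before scaling 2990 genes differed in all. In FL-shGFP the mitochondrially encoded share was 13.7% to 21.5% of counts. All 13 mitochondrially encoded genes fell in FL-shGFP against NL-shGFP, and 0 rose and 0 fell between the 2 fatty liver groups.

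Genes of cells outside the epithelium were called in part. Over all genes tested 9.31% rose and 8.13% fell. With all libraries the myeloid, neutrophil and fibroblast counts below were near or under these shares. Of 22 B and plasma cell genes 5 rose and 0 fell, among them the immunoglobulin genes Igha (2.83 ± 0.65, edgeR adjusted p = 0.00830) and Igkc (2.29 ± 0.64, edgeR adjusted p = 0.0230) and Jchain (2.76 ± 0.67, edgeR adjusted p = 0.0115). Igha was at 15.01, 16.7, 9.02, 10.2 and 5.599 CPM in NL-shGFP and at 33.1, 164, 25.4, 18.1 and 163 in FL-shAlpl, where replicates 2 and 5 stood far above the other 3. Of that list 3 rose without FL-shAlpl replicate 2 and 1 with both pairs summed. Of 26 myeloid genes 1 rose, Cx3cr1 (2.08 ± 0.45, edgeR adjusted p = 0.00567), and of 18 neutrophil genes 1 rose and 2 fell, with 4 falls without FL-shAlpl replicate 1. Of 25 fibroblast genes 3 rose, with Dcn (3.09 ± 0.76, edgeR adjusted p = 0.0120) and Pdgfra (3.47 ± 0.82, edgeR adjusted p = 0.00993) among them, and the summed CPM of 4 fibroblast markers was 6.603 to 43.9 in NL-shGFP and 16.5 to 245 in FL-shAlpl, highest in FL-shAlpl replicate 5. Of the fibroblast list 5 rose and 1 fell without FL-shAlpl replicate 1. Of the small intestine list 8 of 36 genes rose and 3 fell, the same counts as without FL-shAlpl replicate 1. Their part in the results above was not tested.

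The library with small intestine type RNA set some single values. Lyz1, the Paneth cell lysozyme, was at 263, 2.86, 0.265, 1.48 and 14.9 CPM in FL-shAlpl replicates 1 to 5 and at 0.909 to 5.16 in NL-shGFP, and Apoa1, an apolipoprotein, at 51.8, 0.2596, 0.0758, 0.541 and 0.544 and 0.0568 to 0.448. Both passed with all libraries (4.36 ± 1.42, edgeR adjusted p = 0.0468 and 5.56 ± 1.69, edgeR adjusted p = 0.0338) and neither without replicate 1 (0.81, edgeR adjusted p = 0.587 and 0.65, edgeR adjusted p = 0.668). Olfm4, a small intestine stem cell gene, was at 32.95 CPM in replicate 1 and at most 0.741 in the other 4, and did not pass (3.39 ± 1.38, edgeR adjusted p = 0.102).

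The largest rises that also held without replicate 1 were led by genes low in NL-shGFP. St8sia5, a sialyltransferase, was at 0, 0, 0.0654, 0.212 and 0 CPM in NL-shGFP and at 3.91, 16.4, 5.27, 8.97 and 17.2 in FL-shAlpl (7.45 ± 1.16, edgeR adjusted p = 0.000807), with FL-shGFP at 0.678 to 19.4. Robo2, an axon guidance receptor, was at 1.23, 1.07, 2.42, 1.99 and 1.79 CPM in NL-shGFP and at 20.9, 70.7, 35.8, 36.4 and 68.2 in FL-shAlpl (4.77 ± 0.41, edgeR adjusted p = 1.44e-05). Lbp, the lipopolysaccharide-binding protein gene, was at 1.69 ± 1.02 and 42.3 ± 37.4 CPM (4.64 ± 0.67, edgeR adjusted p = 0.000478). Sycn, a zymogen granule protein gene, was at 25.8, 32.3, 24.5, 28.2 and 18.8 CPM in NL-shGFP and at 107, 389.6, 270.1, 202 and 414 in FL-shAlpl (3.42 ± 0.42, edgeR adjusted p = 0.000146). In Mptx1, Clca1, Sycn, Hoxa13, Cldn8, Il18, Aqp4 and St8sia5, which were singled out after their values were seen, FL-shAlpl replicates 2 and 5 were the 2 highest libraries of their group and replicate 1 was the lowest. Outside the groups above, the largest falls by the same rule included the metalloproteinase gene Adamts17 (-2.41 ± 0.27, edgeR adjusted p = 8.63e-05), the coagulation factor gene F10 (-2.30 ± 0.51, edgeR adjusted p = 0.00719), the glycosyltransferase A4gnt (-2.16 ± 0.36, edgeR adjusted p = 0.00121), the metallothionein Mt3 (-2.05 ± 0.21, edgeR adjusted p = 3.92e-05) and the phosphatase Ptpro (-1.89 ± 0.43, edgeR adjusted p = 0.00782).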

How the data were processed

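The 15 libraries came from mRNA-enriched RNA of mouse colonic crypts, per the labels' protocols. The authors deposited a table of read counts per Ensembl gene and a table of FPKM, which scaled with those counts divided by a length per gene. HISAT2 is named per the submitters' processing notes; its version, and which genome, annotation, counter and strand were used, is not given in the sources used here. Of counts from 1 to 12, 72.4% to 77.2% were even in the 15 libraries, so single counts carry less information than their number.

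All 3 groups entered 1 edgeR fit (4.0.16, R 4.3.3) of the counts: filterByExpr, TMM factors, quasi-likelihood test, Benjamini-Hochberg adjustment over 17404 genes, threshold 0.05. Alternatives used limma 3.58.1 (voom, and trend on log2(FPKM + 1) and log2(FPKM + 0.1)), DESeq2 1.42.0, other scalings and filters, fits without each library, and summed NL-shGFP pairs for the lists, the last chosen after seeing the data. Approximate 95% intervals used 12 residual degrees of freedom. The scripts were tested on simulated data.

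The comparison, the gene lists and the rule for named genes were chosen with earlier results of these data known. Named genes were key crypt genes, the 15 largest rises and falls with at least 5 CPM and no overlap with and without FL-shAlpl replicate 1, the 10 largest with at least 50 CPM, up to 6 passing and 3 other members of each list, and 10 genes that moved most without FL-shAlpl replicate 1. Replicates are not stated to be separate animals, so p-values measure the spread between these samples. Symbols matched 32241 of 32939 gene IDs. Promoters came from the RefSeq table on GRCm38.p6.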

Additional observations from a re-analysis of the deposited data

Results flagged for a closer look

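Among 5 libraries a single value was marked where its gap to the nearest other library, as a share of the group's range, exceeded Dixon's 95% value of 0.71. Chance marks about 1 in 20 groups, and of 132 groups (each gene with values by library, in NL-shGFP and FL-shAlpl) 16 were marked.

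FL-shAlpl replicate 1 stood above the other 4 in Apoa1 (51.8 CPM), Il1b (55.9 CPM), Itln1 (114 CPM), Lgr5 (17.4 CPM), Lyz1 (263 CPM), Olfm4 (32.95 CPM) and Reg4 (569 CPM). NL-shGFP replicate 5 stood below the other 4 in Igtp (30.98 CPM), Iigp1 (54.6 CPM), Il1b (19.1 CPM), Mptx1 (5.51 CPM), Scd1 (17.7 CPM) and Tgtp2 (9.24 CPM). NL-shGFP replicate 2 stood above the other 4 in Alpl (0.0498 CPM) and Bhmt (0.199 CPM), and FL-shAlpl replicate 5 above the other 4 in Sst (5.07 CPM).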

How the results depend on the processing

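The count of 3036 genes (1621 higher, 1415 lower) moved by over 1.5 times under these alternatives. With NL-shGFP replicates 1 and 2 summed, and 3 and 4 summed, it was 1340 (637 and 703). With library totals alone 2780 were higher and 930 lower, and with limma-trend on log2(FPKM + 0.1) 2520 were higher. With limma-voom and quality weights it was 5259 (2848 and 2411). Against a 2-fold threshold it was 130 (92 and 38), the count for FL-shGFP against NL-shGFP was 1148, and that for the 2 fatty liver groups 445. Without FL-shAlpl replicate 2 it was 1979, with 868 higher. Leaving out each NL-shGFP or FL-shAlpl library in turn (no FL-shGFP library was left out) gave 1979 to 3523 genes (868 to 1978 higher, 1085 to 1545 lower), the lowest without FL-shAlpl replicate 2 and the highest without replicate 1. For FL-shGFP against NL-shGFP the range over the same fits was 7177 to 8411, and for FL-shAlpl against FL-shGFP 5034 to 6557. The difference in mitochondrially encoded share was -14.5 to -11.9 percentage points and that in total counts, in units of 1e06 counts, 9.55 to 13.7. The causes were not tested. Keeping all 15 libraries separate was the analysis reported.

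With the replicate number as a block the count was 2457 (1237 and 1220). Same-numbered libraries correlated at 0.07, 0.08, -0.13, 0.01 and -0.15, so the numbers do not pair the libraries.

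Of 209 genes with values in the text, 0 were called in the opposite direction under any of the 27 alternatives. Of the 171 that passed, 141 passed in every fit without 1 library and 27 in every alternative, the 2-fold threshold included. The common biological coefficient of variation was 30.2%, which limits small differences, and genes with few counts are limited by depth.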

Other observations

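Zinc and iron genes moved in both directions. Of 22 tested, 5 rose and 3 fell. Trf, the iron carrier transferrin (1.90 ± 0.33, edgeR adjusted p = 0.00161), the ferritin subunit Ftl1, which has near-identical copies (0.46 ± 0.11, edgeR adjusted p = 0.0103) and the zinc exporter Slc30a2 (1.45 ± 0.35, edgeR adjusted p = 0.0107) rose, and the metal importer Slc39a8 fell (-0.76 ± 0.19, edgeR adjusted p = 0.0110). The abundant ferritin subunit Fth1 did not pass (0.21 ± 0.24, edgeR adjusted p = 0.603). With library totals alone 9 of the list rose and 1 fell, and with limma-voom 12 rose and 3 fell.

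Of 33 genes in the cholesterol list 3 rose and 0 fell by edgeR (DESeq2 called 1 lower and limma-voom 3), and 6 had an unadjusted p under 0.05 in either direction. The 3 rises were near the share of all genes tested that rose, 9.31%. The 3 that rose act in sterol export and its control, which were Abcg5, Abcg8 and Nr1h3, the oxysterol receptor (0.83 ± 0.17, edgeR adjusted p = 0.00348). The synthesis genes Hmgcs1 (-0.27 ± 0.30, edgeR adjusted p = 0.602) and Cyp51 (-0.29 ± 0.15, edgeR adjusted p = 0.210) and their regulator Srebf2 (0.15 ± 0.08, edgeR adjusted p = 0.241) did not pass. With library totals alone 6 of these 33 rose.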
